A study of Homo sapiens with 12 samples.

Results

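RNA levels of 9 genes of the NRF2 antioxidant pathway were examined in 2 types of human neurons made from stem cells: *NFE2L2*, *KEAP1*, *HMOX1*, *NQO1*, *GCLC*, *GCLM*, *TXNRD1*, *SRXN1* and *OSGIN1*. They were taken by gene symbol from the deposited gene tables, 1 for each neuron type. All 9 were listed in both tables, among 16406 genes for the motor neurons, 19016 genes for the glutamatergic neurons and 16093 genes listed in both. The study asked how loss of the survival motor neuron protein, SMN, changes RNA levels in human neurons. Motor neurons (iMNs) were differentiated with small molecules from iPSCs that carry Td-Tomato under the promoter of HB9, a motor neuron transcription factor, and were sorted by FACS for the reporter. Glutamatergic neurons (i3Ns; cortical neurons in the sample labels) were made from human H1 embryonic stem cells by inducible expression of NGN2, a transcription factor that drives neuronal differentiation. Both types received a lentiviral shRNA, either scrambled (SCR) or against *SMN1/2* (SMN-KD), and RNA was harvested after 12 days. RNA-seq was made of 12 libraries, 3 SCR and 3 SMN-KD for each neuron type, so each neuron type stands on a single stem cell line.

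NRF2, encoded by *NFE2L2*, is the transcription factor that turns on genes against oxidative and electrophilic stress. In unstressed cells KEAP1 binds NRF2 and presents it to a CUL3 ubiquitin ligase, so that NRF2 is degraded. When cysteines of KEAP1 are modified, NRF2 accumulates, pairs with a small MAF protein and binds antioxidant response elements (AREs) near its target genes. Neurons are known for weak NRF2 activity compared with astrocytes. NRF2 is controlled mainly through protein stability, so the *NFE2L2* mRNA level is not a measure of NRF2 activity.

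The value given for each gene is the authors' mean normalized count over the 6 libraries of a neuron type, which pools SCR with SMN-KD. It therefore describes the level of a gene in the neurons as they were profiled, and not the response to SMN-KD. Values for single libraries were not used here, so a mean carries no SD and no difference was tested. The depth of the libraries is not known from these values. The mean of the median gene was 875 in iMNs and 577 in i3Ns. The lowest mean listed was 7.73 in iMNs and 1.37 in i3Ns, so a gene below 7.73 could be listed only in i3Ns. The tables were normalized separately. Between them, neuron type, stem cell line, differentiation and sorting change together and cannot be told apart. Because each mean pools SCR with SMN-KD, a response to SMN-KD that differs between the neuron types cannot be separated either.

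The ARE is shown first, since it is the sequence that NRF2 and its MAF partner read in these genes. Its extended core, TGAC and GCA with any 3 bases between, was searched on both strands of the RefSeq promoters of GRCh38.p14, each reaching from 250 bases before to 50 bases after a transcription start. Promoters were matched for 8 of the 9 genes, all but *HMOX1*. A core was found for 3 of the 8, *GCLM*, *KEAP1* and *TXNRD1*. Of all 27303 genes with such a promoter, 3.94% held one. A shorter core, TGAC and GC with any 3 bases between, was held by the same 3 of 8 genes, beside 16.1% of all genes. The contrast with all genes thus depends on the form of the core. The extended core lay 35 bases before the *GCLM* start on the opposite strand to the gene, upstream of the first exon. In *KEAP1* it lay 32 bases before an inner start, and in *TXNRD1* 103 bases before an inner start. On the MANE Select transcript, the reference transcript of a gene, the *KEAP1* site lies in intron 1 and the *TXNRD1* site in intron 3. The 3 sites are printed on the strand that reads as the core, with its fixed letters in capitals.
GCLM, chr1:93909446-93909475, plus strand: tggaagacaaTGACtaaGCAgaaatcgtag
KEAP1, chr19:10502784-10502813, plus strand: caggtcaccaTGACtaaGCAgagccgggcg
TXNRD1, chr12:104286919-104286948, minus strand: agagtcagaaTGACaaaGCAgaaatccact

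The letters between the fixed parts were the same, taa, in *GCLM* and *KEAP1*, and aaa in *TXNRD1*.

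AREs are also known to act from farther upstream. In the 5000 bases before the MANE Select start, a window chosen after the promoter search, 7 of the 9 genes held at least 1 extended core. The share of all 19055 genes with one was 45.8%, so a match in a window this long is common. *HMOX1* and *GCLC* held 2 cores each, against an average of 0.620 per window over all genes, and *NFE2L2* and *SRXN1* held none. The sites of *NQO1* and *HMOX1* are printed because these genes, with *GCLM*, are the most widely used readouts of NRF2. The upstream end of the *NQO1* core lay 455 bases before the start, and those of the 2 *HMOX1* cores 4005 and 3941 bases before it.
NQO1, chr16:69726996-69727025, minus strand: gcagtcacagTGACtcaGCAgaatctgagc
HMOX1 first, chr22:35377081-35377110, minus strand: ctcccaaacaTGACgcaGCAgaaatgcagc
HMOX1 second, chr22:35377145-35377174, minus strand: gaggcactggTGACtcaGCAaaatctagca

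*NQO1* and the second *HMOX1* site share the same core, with tca between the fixed letters. A match of letters is a description of the reference sequence and shows neither binding of NRF2 nor a part in the levels below.

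*NFE2L2* and its inhibitor *KEAP1* were both above the median gene of their table. *NFE2L2* (ENSG00000116044; GRCh38 chr2:177218667-177392756, minus strand) had a mean normalized count of 1123 in iMNs and 1185 in i3Ns, at the percentiles 55.5 and 62.3 of all listed genes. *KEAP1* (ENSG00000079999; chr19:10486125-10503558, minus strand) stood at 2620 in iMNs and 2986 in i3Ns. To set genes side by side, means were divided by the length of the MANE Select transcript in kilobases. On this scale *KEAP1* was 2.23 times the level of *NFE2L2* in iMNs (1022 against 459 per kilobase). In i3Ns the ratio was 2.40 (1164 against 484 per kilobase). The mean of the inhibitor was thus above that of the transcription factor in both neuron types, by a similar factor. For *NFE2L2* the value depends on the transcript: per kilobase of its longest transcript it was 220 in iMNs and 232 in i3Ns, against 990 and 1128 for *KEAP1*. The exons of *NFE2L2* overlap an antisense RNA, ENSG00000222043, by 190 bases, and whether counting used strand is not stated.

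*GCLC* and *GCLM* encode the catalytic and the modifier subunit of glutamate-cysteine ligase, the rate-limiting enzyme of glutathione synthesis. *GCLC* (ENSG00000001084; chr6:53497341-53616970, minus strand, 16 exons) had a mean normalized count of 1099 in iMNs and 1302 in i3Ns. *GCLM* (ENSG00000023909; chr1:93885199-93909456, minus strand, 7 exons) had 423 in iMNs and 474 in i3Ns, below the median gene of both tables. Per kilobase *GCLC* stood 3.35 times above *GCLM* in iMNs and 3.54 times in i3Ns. The means of the 2 subunits were unequal, by nearly the same factor in both neuron types.

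*TXNRD1*, the cytosolic thioredoxin reductase that uses NADPH to recycle thioredoxin, was the highest of the 9 genes in both neuron types. Its mean normalized count (ENSG00000198431; chr12:104215779-104350307, plus strand, 17 exons) was 6391 in iMNs and 7213 in i3Ns, at the percentiles 90.5 and 92.5. It made up 49.1% of the summed mean of the 9 genes in iMNs and 51.2% in i3Ns. *SRXN1* encodes sulfiredoxin, which reduces overoxidized peroxiredoxins. *SRXN1* (ENSG00000271303; chr20:646615-653200, minus strand, 2 exons) had a mean of 1065 in iMNs and 539 in i3Ns, above the median gene in iMNs and below it in i3Ns. The value is uncertain, because 2292 bases of its exons are shared with a protein-coding gene model on the same strand, ENSG00000270299. That model was listed at 88.7 in iMNs and 28.0 in i3Ns, and how reads were divided between the pair is not known.

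*HMOX1*, *NQO1* and *OSGIN1* were the lowest of the 9 genes in iMNs. *HMOX1* encodes haem oxygenase, which breaks down haem to biliverdin, iron and carbon monoxide. Its mean (ENSG00000100292; chr22:35380361-35394214, plus strand, 5 exons) was 119 in iMNs and 278 in i3Ns, at the percentiles 23.6 and 41.2. *NQO1*, a quinone reductase, was listed at 60.4 in iMNs and 105.7 in i3Ns (ENSG00000181019; chr16:69706996-69726668, minus strand, 6 exons). On the scale per kilobase *NQO1* was the lowest of the 9 genes in iMNs, with 23.9, and next to the lowest in i3Ns, with 41.9. *OSGIN1*, a growth inhibitor induced by oxidative stress, had a mean of 112 in iMNs and 13.0 in i3Ns (ENSG00000140961; chr16:83931311-83966332, plus strand, 6 exons). At 6.74 per kilobase it was the lowest of the 9 in i3Ns. The exons of *NQO1* share 575 bases with the opposite-strand gene ENSG00000261602 and those of *GCLC* share 252 bases with *GCLC-AS1*. Neither of these partners, nor that of *NFE2L2*, was listed in the tables.

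Within each neuron type the 9 genes spanned a wide range. Per kilobase, the order in iMNs was *TXNRD1*, *KEAP1*, *NFE2L2*, *SRXN1*, *GCLC*, *GCLM*, *HMOX1*, *OSGIN1* and *NQO1*, and the first stood 69.1 times above the last. In i3Ns *TXNRD1*, *KEAP1* and *NFE2L2* again came first, then *GCLC*, *SRXN1*, *HMOX1*, *GCLM*, *NQO1* and *OSGIN1*, over a range of 277 times. The place of *NFE2L2* holds for the MANE Select transcript: per kilobase of the longest transcript it stood below *SRXN1* and *GCLC* in iMNs and below *GCLC* in i3Ns. Without values for single libraries it is not known which neighbours in these orders differ beyond their spread. In mean normalized count, 5 of the 9 were above the median gene in iMNs and 4 of 9 in i3Ns. The median percentile of the 9 was 54.3 in iMNs and 48.9 in i3Ns, close to the middle of each table. This position rests on the low genes that are listed: among genes with a mean of at least 100, 2 of the 9 were above the median gene in each neuron type. On the scale per kilobase, 4 of the 9 were above the median gene (327 in iMNs, 286 in i3Ns) in each neuron type. Together the 9 genes held 0.0300% of the summed means in iMNs and 0.0313% in i3Ns.

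**Figure D1:**
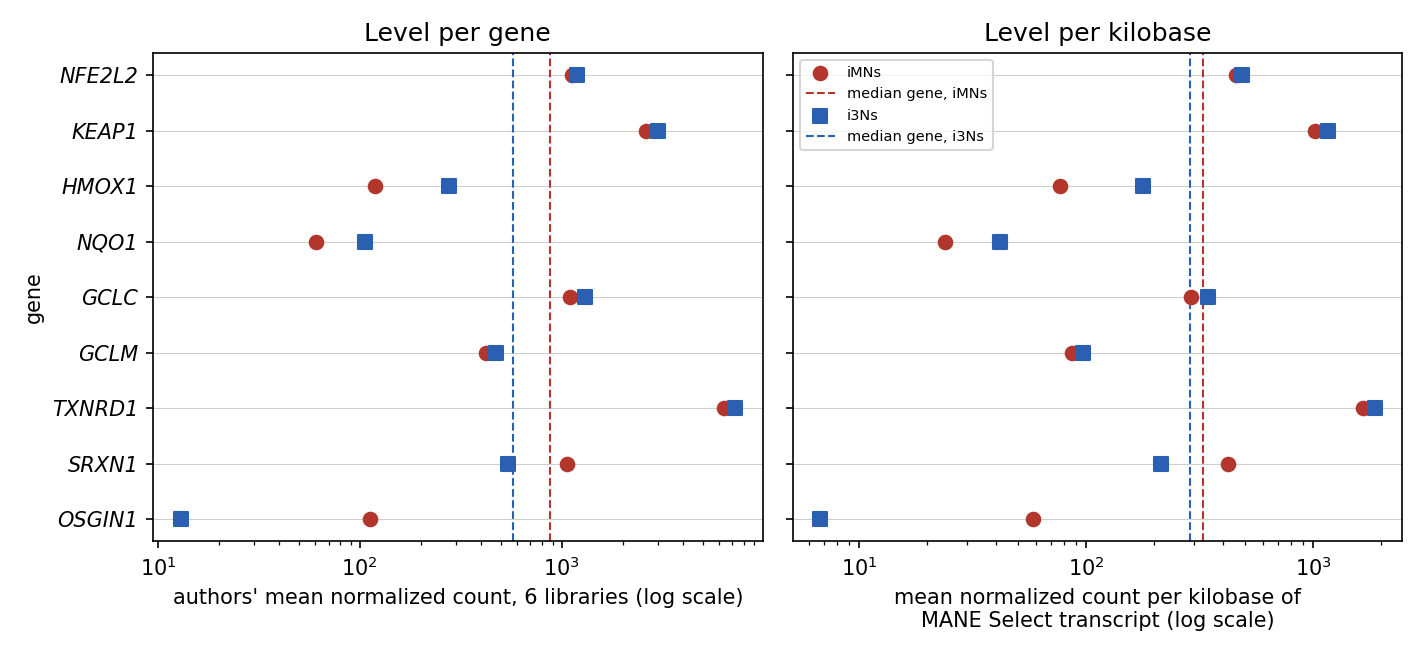
Levels of the 9 genes, as the authors' mean normalized count over 6 libraries (left) and per kilobase of MANE Select transcript (right), on log axes; circles are iMNs, squares are i3Ns, and dashed lines mark the median gene of each table. *TXNRD1* lies farthest right for both neuron types, *OSGIN1* lies farthest left in i3Ns, and *NQO1* lies farthest left in iMNs; the means have no error bars because values for single libraries were not used.

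To compare the neuron types, the log2 ratio of the i3N mean to the iMN mean was taken for each of the 16093 genes in both tables, and the median ratio (0.07, a factor of 1.05) was subtracted. A positive relative log2 ratio is a higher level in i3Ns than the median gene. These ratios are descriptions without a test. Of the 9 genes, 7 had a ratio above 0 and 2 below it, and *NFE2L2* is among the 7 although its sign changed with the scaling. For 5 of the 9 the ratio lay close to 0. These were *NFE2L2* at 0.01, *GCLM* at 0.10, *TXNRD1* at 0.11, *KEAP1* at 0.12 and *GCLC* at 0.18. Between 79.9% and 98.9% of all genes lay at least as far from 0 as these 5. The size of the difference, without its sign, had a median of 0.18 over the 9 genes and 0.48 over all genes. Over the scalings tried *NFE2L2* ranged from -0.02 to 0.08, so no direction is given for it.

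The other 4 genes lay farther out. *HMOX1* was 2.22-fold higher in i3Ns (relative log2 ratio 1.15), and 20.6% of all genes were at least as far from 0. *NQO1* was 1.67-fold higher in i3Ns (0.74), with 34.3% of all genes at least as far. *SRXN1* was 2.07-fold lower in i3Ns (-1.05), with 23.1% of all genes at least as far out. The largest difference was that of *OSGIN1*, which was 9.05-fold lower in i3Ns (-3.18), and 3.42% of all genes were at least as far from 0. Its i3N mean, 13.0, is among the low values of that table, at the percentile 17.6. Differences of at least 2-fold were thus found for 3 of the 9 genes, beside 24.6% of the 16093 genes, so a difference of this size was not rare. In the higher direction it was 1 of 9 beside 9.95% of all genes, and in the lower direction 2 of 9 beside 14.7%. The 7 target genes did not differ in 1 direction: *HMOX1* and *NQO1* stood higher in i3Ns, *SRXN1* and *OSGIN1* stood lower, and both subunits of glutamate-cysteine ligase and *TXNRD1* differed little.

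**Figure D2:**
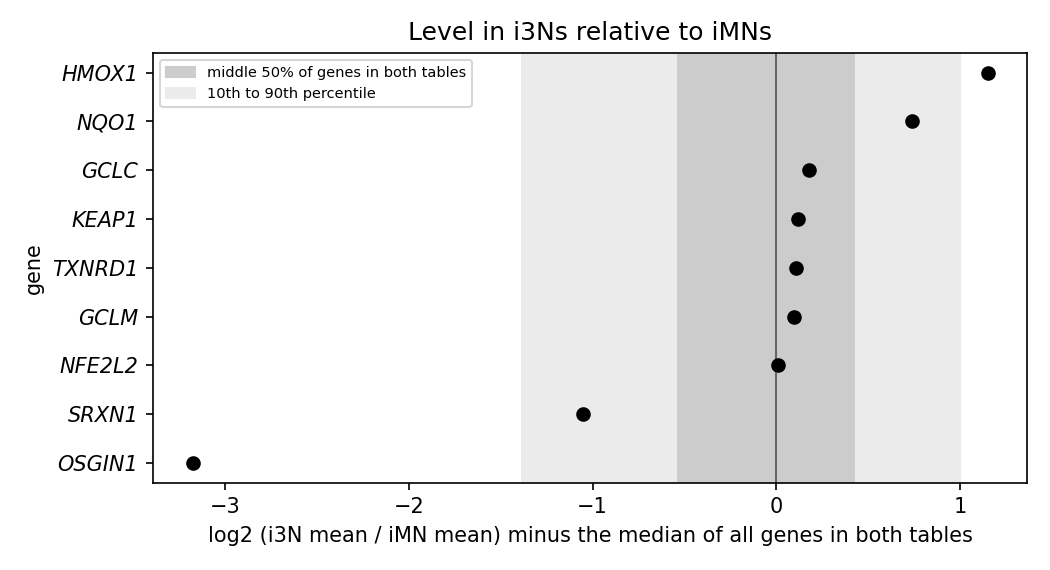
Relative log2 ratio of the i3N mean to the iMN mean for each of the 9 genes, with 0 at the median of the 16093 genes in both tables; dark grey spans the middle 50% of all genes (-0.54 to 0.44) and light grey the 10th to 90th percentile (-1.38 to 1.00). Only *OSGIN1* (-3.18) and *HMOX1* (1.15) lie outside the light band, and *NFE2L2*, *GCLM*, *TXNRD1*, *KEAP1* and *GCLC* lie within the dark band.

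RNAs of the regulators of NRF2 were mostly above the median gene. All 16 regulators of the list, among them the ligase parts *CUL3* and *RBX1*, the small MAF partners, the competing repressors *BACH1* and *BACH2* and the coactivators *CREBBP* and *EP300*, were in both tables. In each, 14 of the 16 were above the median gene, with a median percentile of 87.1 in iMNs and 89.7 in i3Ns. The highest mean normalized count was that of *GSK3B*, a kinase that marks NRF2 for degradation independently of KEAP1, with 20003 in iMNs and 25459 in i3Ns. The lowest was *NFE2L3*, a relative of NRF2, with 386 in iMNs and 407 in i3Ns. Per kilobase, *NFE2L1* stood above *GSK3B* in i3Ns (3641 against 3288). Between the neuron types 11 regulators were higher and 5 lower in i3Ns, with a median relative log2 ratio of 0.05. At least 2-fold apart were 2 of the 16, beside 24.6% of all genes, so differences of this size were not more frequent among the regulators. Both are small MAF genes, named after their values were seen. *MAFF* was listed at 1791 in iMNs and 625 in i3Ns (-1.59). *MAFK* was listed at 1142 in iMNs and 425 in i3Ns (-1.50). The third small MAF gene, *MAFG*, had a relative log2 ratio of 0.04.

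Other known NRF2 targets were described as 3 lists. Of 15 genes of glutathione and thioredoxin metabolism, 13 were listed in iMNs and 14 in i3Ns, and 10 were above the median gene in each. *GPX2* was listed in neither table, and *GSTM1* only in i3Ns, at 1.88, below the lowest mean of the iMN table. The highest was the glutathione transferase *GSTP1* in iMNs, with 5992, and the peroxiredoxin *PRDX1* in i3Ns, with 8071. The lowest mean in iMNs was that of the microsomal transferase *MGST1*, with 33.1. Of the 13 in both tables, 3 were higher and 10 lower in i3Ns, with a median relative log2 ratio of -0.53. *SLC7A11*, the cystine importer subunit that feeds glutathione synthesis, went the other way (34.3 in iMNs and 79.4 in i3Ns, 1.14). Per kilobase *SLC7A11* was below *MGST1* in iMNs (3.55 against 35.8).

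All 6 genes that supply NADPH, the reductant used by TXNRD1, NQO1 and glutathione reductase, were above the median gene in both tables. *PGD*, of the pentose phosphate pathway, was the highest, with 10752 in iMNs and 15724 in i3Ns. *ME1*, malic enzyme, was the lowest, with 1258 in iMNs and 592 in i3Ns (-1.16). Of the 6, 1 was higher and 5 were lower in i3Ns, with a median of -0.35.

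Of 15 genes for detoxification, haem and iron, 13 were listed in iMNs and 14 in i3Ns, and 9 were above the median gene in each. *AKR1B10* was listed in neither, and *CBR3* only in i3Ns, at 4.17, also below the lowest mean of the iMN table. *FTH1*, the heavy chain of the iron store ferritin, was the highest, with 34800 in iMNs and 30929 in i3Ns. *AKR1C3* was the lowest in iMNs, with 20.6. Of the 13 in both tables, 4 were higher and 9 lower in i3Ns, with a median of -0.44. *AKR1C2*, an aldo-keto reductase, was listed at 3594 in iMNs and 429 in i3Ns (-3.14), but it has near-identical paralogs among which reads can be split. *FECH*, which inserts iron into haem, was listed at 541 in iMNs and 1258 in i3Ns (1.15).

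Over the 3 lists, 32 of the 36 genes were in both tables, 8 were higher and 24 lower in i3Ns, and the median relative log2 ratio was -0.44. The 9 genes above had a median of 0.11. Among the genes counted as lower, *PRDX6* (-0.02), *IDH1* (-0.04) and *UGDH* (-0.05) had small ratios and would count as higher without the scaling. At least 2-fold higher were 2 of the 32, *SLC7A11* and *FECH*, beside 9.95% of all genes. At least 2-fold lower were 4, *ABCC4* (-1.61), *ME1*, *AKR1C2* and *AKR1C3* (-1.24), beside 14.7%.

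**Figure D3:**
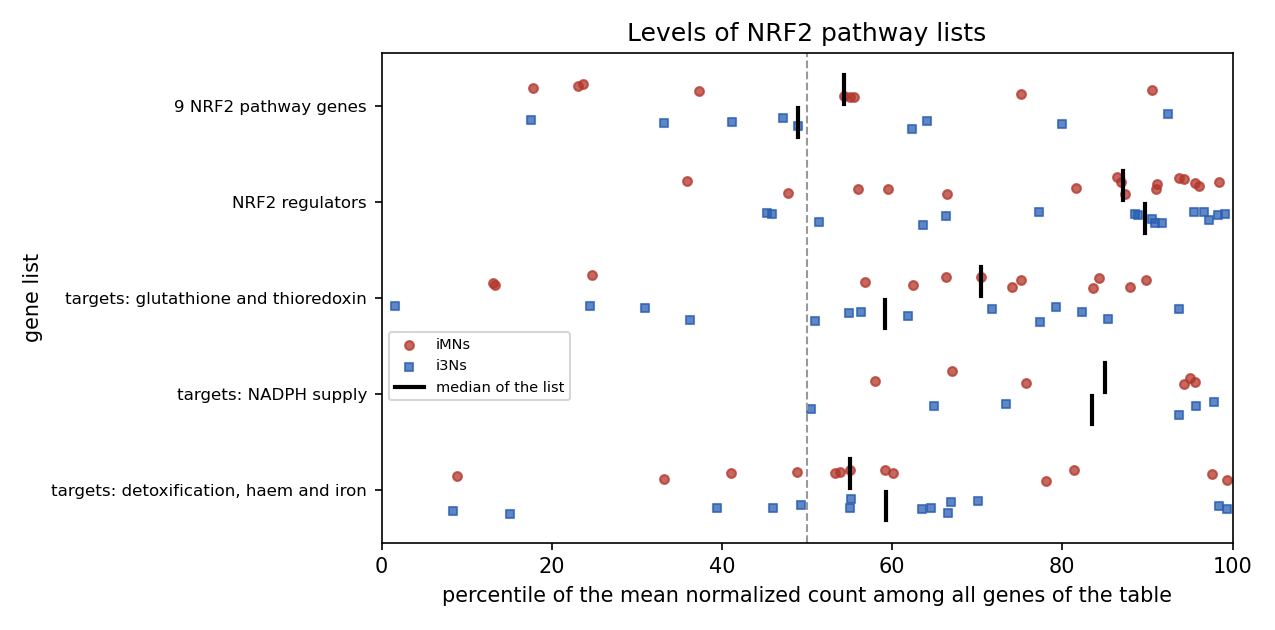
Percentile of the authors' mean normalized count among all genes of the table, for the 9 genes, the NRF2 regulators and the 3 lists of other NRF2 targets; each circle is a gene in iMNs, each square a gene in i3Ns, black bars are medians of the genes listed and the dashed line is the median gene. The regulators have their medians at 87.1 and 89.7, and the 9 genes theirs at 54.3 and 48.9.

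The labelled cell types were checked against their markers. All 6 pan-neuronal markers were above the median gene in both tables. The glutamatergic markers *SLC17A6* and *SLC17A7* were listed at 593 and 50.1 in iMNs and at 11237 and 6490 in i3Ns, and *NEUROD1* at 88.8 and 4039. *NEUROG2*, which encodes NGN2, went the other way, with 263 in iMNs and 114 in i3Ns, so 3 of the 4 glutamatergic markers were higher in the neurons labelled with that type. The motor neuron markers went partly against the labels. *MNX1*, which encodes HB9, was listed at 430 in iMNs and 2279 in i3Ns, and *ISL1* at 1663 in iMNs and 14299 in i3Ns. *ISL2* (70.6 in iMNs and 3558 in i3Ns) and *LHX3* (15.1 and 230) were also higher in i3Ns. *CHAT* was listed at 533 and 527, *SLC18A3* at 3115 and 1865, and the choline transporter *SLC5A7* at 8460 in iMNs and 2472 in i3Ns. Of the 7 motor neuron markers, 4 were thus higher in i3Ns, each by at least 2-fold, and 3 were lower. For this reason iMNs and i3Ns are names of the preparations here.

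Other cells were also looked for, since astrocytes carry higher levels of NRF2 targets than neurons. Of 8 glial markers, 3 were listed in iMNs and 4 in i3Ns, with summed means of 405 and 990, and *GFAP*, *AQP4* and *AIF1* were in neither table. *MBP* alone gave 329 of the first sum and 949 of the second. *SLC1A3* was lower in i3Ns (46.2 in iMNs and 21.1 in i3Ns), and *S100B* was listed only in iMNs, at 29.8. The glial markers thus did not differ in 1 direction. Of the 3 stem cell markers, *LIN28A* stood at 215 in iMNs and 4216 in i3Ns. *NANOG* and *POU5F1* were listed only in i3Ns, at 7.73 and 13.9, near the low end of that table. *POU5F1* had 4 entries there, and the value given counts only those with an ID in GENCODE 44, so it may be too low. The mesenchymal markers summed to 2039 in iMNs and 4896 in i3Ns, of which *COL1A1* gave 1321 and 4228, while *COL1A2* stood at 686 in iMNs and 611 in i3Ns. The part of these cells in the levels of the 9 genes was not tested. In bulk RNA, fewer cells of a type and less RNA per cell cannot be told apart.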

How the data were processed

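RNA-seq libraries were made after ribosomal RNA depletion from 12 samples, 3 SCR and 3 SMN-KD of each neuron type. The authors used fastp for trimming, Salmon for quantification and DESeq2 for normalization and the comparison of SMN-KD with SCR; versions, annotation and the filter on low counts are not given in the sources used here. The authors' deposited tables hold for each gene a signal, the mean over 6 libraries of counts divided by size factors, which was the only measurement used. The other 4 value columns per table hold the fold change of SMN-KD over SCR, its standard error, the p-value and the adjusted p-value of the authors' own comparison, and were not used. The levels in SCR and SMN-KD were therefore not separated, and *SMN1/2* knockdown was not checked.

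Genes were matched by symbol, and 15713 of 16406 (iMN) and 18138 of 19016 (i3N) IDs were found in GENCODE 44, from which positions and MANE Select lengths were taken. Percentiles count all genes of a table. Promoters came from RefSeq (GRCh38.p14) and longer upstream windows from hg38. Scripts used Python 3.11.15, numpy 2.4.6, pandas 2.3.3 and matplotlib 3.10.9, and the code for ratios was tested on simulated data. The members and lists were chosen with earlier results of these data known. Named were all 9 members and, of each list, the highest, the lowest and the missing genes. *MAFF*, *MAFK*, *MAFG*, *NFE2L1*, *SLC7A11*, *ABCC4*, *AKR1C3*, *AKR1C2*, *FECH*, *PRDX6*, *IDH1* and *UGDH* were added after their values were seen.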

Additional observations from a re-analysis of the deposited data

How the results depend on the processing

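With only genes of a mean of at least 100 kept, 2 of the 9 genes were above the median gene in iMNs (5 with all genes) and 2 in i3Ns (4 with all genes), since removing low genes raises the median. The 300-base promoters of 3 of 8 genes held an extended ARE core, whereas the 5000-base windows gave 7 of 9 genes. With the short core TGACNNNGC, which every extended core contains, the 5000-base windows gave 8 of 9 and the promoters again 3 of 8. In the promoters, 3.94% of all genes held the extended and 16.1% the short core. Of all 19055 genes, 45.8% held the extended and 83.7% the short core in the 5000-base window. A longer window and a shorter motif match at least as often by construction. The number of genes higher in i3Ns was 7, and 6 with genes of low mean or genes that are not protein-coding left out. Other scalings were tried for the 9 genes only, so counts of regulators and other targets higher or lower in i3Ns hold for the main scaling. Without scaling, 2 and not 3 genes were at least 2-fold apart, since *SRXN1* came to -0.98. Level per kilobase stayed within 1.5 times for 16 of 18 values when the longest transcript replaced the MANE Select transcript; the exceptions were the 2 values of *NFE2L2*. No paired analysis was possible because the values used hold no single libraries. For the same reason other size factors, a filter on counts, a count test and leaving out a library were not run, and the spread between replicates is not known for any value.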
